A study of Mus musculus with 12 samples.

Results

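The genes described here are 43 interferon-stimulated genes, followed across the stromal and immune cells of the mouse mammary gland under ovarian hormone replacement. They were chosen by symbol from a fixed list, and 42 of the 43 had a row among the 27998 genes counted in every library (Mx2 had none). Their UMIs were summed per library and cell type, and libraries from mice given estradiol (E2) or E2 with progesterone (P4) were compared with libraries from mice given neither, in order to tell whether a response seen in the stroma was shared by immune cells.

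The mice were C57BL/6J, 43 weeks old, with 1 library of dissociated mammary gland cells per group, and the labels do not say whether a library pooled animals. In 11 of the 12 groups the ovarian follicles had been depleted with 4-vinylcyclohexene diepoxide (VCD, 160 mg/kg per day intraperitoneally for 15 days), so the groups without hormone carried that treatment too. The group called Intact received no VCD. Of the VCD groups, 9 made a full layout of 3 hormone treatments (none, E2, E2 + P4) by 3 diets (no polybrominated diphenyl ethers, low PBDE, high PBDE), namely VCD_Vehicle, VCD_E2, VCD_E2_P4, VCD_Low_PBDE, VCD_Low_E2, VCD_Low_E2_P4, VCD_High_PBDE, VCD_High_PBDE_E2 and VCD_High_PBDE_E2_P4. E2 was given at 1 µg and P4 at 1 mg per animal per day by intraperitoneal injection during the last 1 week, with sesame oil as vehicle. The low diet held PBDE-47, PBDE-100 and PBDE-153 (0.05, 0.0028 and 0.0063 mg/kg per day) from 100 days after the start of VCD and lasted 20 weeks, and the high diet held 1, 0.056 and 0.126 mg/kg per day and lasted 1 week, which ties the amount of PBDE to its duration. The groups without PBDE ate matched food with DMSO. The other groups were VCD_E2_ICI, with 5 mg per animal of the estrogen receptor antagonist ICI injected once at the start of E2, and VCD_Vehicle_NormEnv, a further vehicle group whose "NormEnv" the labels do not explain. Intact and these 2 groups are given as values with no test.

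Interferons are secreted signals of antiviral defence. Type I interferons, such as interferon beta (encoded by Ifnb1), bind the receptor of Ifnar1 and Ifnar2, and the kinases Jak1 and Tyk2 then activate a complex that contains Irf9 and binds the interferon-stimulated response element in the promoters of their targets. Interferon gamma, made mainly by T and natural killer cells, acts through Ifngr1, Ifngr2, Jak1 and Jak2, and strongly induces the p47 and p65 GTPases that defend cells against pathogens in vacuoles. The members fall into effectors of the IFIT, OAS and Mx families (9 with a row), sensors of foreign nucleic acids (5), the ubiquitin-like modifier Isg15 with its removing enzyme Usp18 and its ligase Herc6 (3), ADP-ribosylation (Parp9, Parp14 and Dtx3l), interferon-inducible GTPases (6), membrane and secreted proteins (Bst2, Ifitm3 and Lgals3bp) and 13 others.

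The response element can be seen in the promoters of some of the members described below. The letters TTTCNNTTTC, its core, were searched on both strands in RefSeq windows (GRCm38.p6) of 300 bases, 250 before and 50 after the start of each gene. The window of a further 10 members with a row was missing from the table. The 32 members with a window had 37 windows, some with more than 1 start, and 19 of these windows (51.4%) held the letters, against 1131 of all 32851 windows (3.44%). Ifi44, Lgals3bp, Oasl2, Ifi47, Phf11d and Ifit2 had no match in their windows, and Ifi27l2a, Oas2 and Dhx58 had no window. By gene, 18 of the 32 members had a match. For 4 of these members, 100 bases that hold the matches are shown 5′ to 3′ on the gene's own strand, from 100 to 1 bases before the annotated start for Isg15, 110 to 11 for Ifit1, 160 to 61 for Ifit3 and 140 to 41 for Bst2, with the bases that belong to a match (in either orientation, overlapping matches joined) in capitals. Isg15 lies at chr4:156200819-156200918 (minus strand), Ifit1 at chr19:34640779-34640878 (plus), Ifit3 at chr19:34583369-34583468 (plus) and Bst2 at chr8:71537513-71537612 (minus).
Isg15: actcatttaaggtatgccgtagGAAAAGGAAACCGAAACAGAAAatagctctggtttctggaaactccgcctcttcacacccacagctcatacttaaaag
Ifit1: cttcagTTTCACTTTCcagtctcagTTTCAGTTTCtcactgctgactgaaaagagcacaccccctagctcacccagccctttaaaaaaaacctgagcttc
Ifit3: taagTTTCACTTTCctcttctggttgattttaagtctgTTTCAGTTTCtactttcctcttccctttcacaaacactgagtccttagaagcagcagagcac
Bst2: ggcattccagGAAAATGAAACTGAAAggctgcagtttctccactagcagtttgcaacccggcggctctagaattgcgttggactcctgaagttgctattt

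The 3 matches of Isg15 began 78, 72 and 66 bases before the start and overlapped, those of Ifit1 began 104 and 85 bases before it, those of Ifit3 156 and 122, and those of Bst2 130 and 124. A match is a description of these letters and not a measured binding site.

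Cells were assigned to types by clustering on genes other than the members and the rest of the interferon pathway, and clusters were named from marker genes. The rule that scored the markers was set after the clusters had been seen. Fibroblast clusters were called Fib_0-like to Fib_3-like after the markers of the study's fibroblast populations, and immune clusters macrophages, monocytes, dendritic cells, T cells, natural killer cells and type 2 innate lymphoid cells (ILC2), each of which should be read as "like". All 10 classes had at least 10 cells in each of the 9 libraries, from 431 to 1299 Fib_0-like, 64 to 949 Fib_1-like, 104 to 635 Fib_2-like and 158 to 455 Fib_3-like cells, 34 to 96 macrophages, 14 to 71 monocytes, 31 to 97 dendritic cells, 29 to 241 T cells, 18 to 120 natural killer cells and 28 to 164 ILC2. All markers of each named type were detected in its own cells, except that 3 of the 8 listed for T cells had no row. Detection does not separate the types, since all 8 macrophage markers were also detected in Fib_0-like cells. Over all libraries, T cell markers summed to 1230 CPM in ILC2 and 2854 in T cells. Markers of type 2 conventional dendritic cells summed to 2342 CPM in macrophages and 1248 in dendritic cells. Libraries held 41737881 to 109224969 UMIs, and 46257 of 58620 barcodes passed the cell filters. Of these cells, 7226 fibroblasts and 1687 immune cells lay in clusters without a name, and 4899 fibroblasts were not selected. A further 4134 cells, up to 2037 of them in 1 library, were given no class. The 10 classes hold none of these cells and so do not cover all the stroma or immune cells. Barcode sequences seen in more than 1 library numbered 274, with at most 15 shared by a pair.

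The summed level of the 42 members shows the pattern by cell type. In CPM, UMIs scaled to the total of a library's sum for that type, and in the order no PBDE, low PBDE, high PBDE used for every set of 3 values below, Fib_0-like cells held 6449, 3969 and 4685 CPM without hormone, 10545, 10030 and 7820 with E2, and 12906, 10854 and 9962 with E2 + P4. All 6 hormone libraries lay above all 3 without hormone, with a mean of 10353 ± 1642 (SD, n = 6) against 5035 ± 1276 (n = 3). Fib_3-like cells held 5006, 4033 and 3871 CPM without hormone, 6157, 6584 and 6882 with E2 and 10265, 9441 and 9886 with E2 + P4, so that here the 3 treatments did not overlap.

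Among immune cells the macrophages, which clear debris and are found throughout the gland, moved the same way. Macrophages held 6102, 4519 and 5365 CPM without hormone, 10699, 13162 and 7598 with E2 and 9014, 6969 and 10060 with E2 + P4. Dendritic cells, which present antigen, held 3075, 2112 and 2126 CPM without hormone, 4034, 4739 and 3844 with E2 and 4916, 5781 and 3926 with E2 + P4. In both types no hormone library fell within the range of those without. With Ifi27l2a, Ifitm3 and Bst2 left out of the sum this still held in dendritic cells, but in macrophages VCD_Low_E2_P4, at 2165 CPM, lay inside the range without hormone (1787, 1530 and 2311 CPM). With cells gated by their own markers the log2 ratio of the dendritic sum was -0.11, 1.28 and 1.71 at the 3 PBDE levels, against 0.54, 1.32 and 0.87 by cluster, so the direction at no PBDE rests on how the cells were chosen. Fib_2-like cells went the other way, at 5009, 3796 and 3800 CPM without hormone, 3509, 4021 and 2546 with E2 and 2334, 2835 and 2135 with E2 + P4, with 1 hormone library inside the range of those without.

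In the other types the groups overlapped. The mean moved from 3287 ± 555 to 4608 ± 493 CPM in Fib_1-like cells, from 8687 ± 1825 to 10787 ± 1402 in monocytes, from 2366 ± 604 to 2835 ± 615 in T cells, from 1248 ± 224 to 2278 ± 701 in ILC2 and from 1370 ± 558 to 1298 ± 107 in natural killer cells (SD, n = 3 without and n = 6 with hormone). With Ifi27l2a, Ifitm3 and Bst2 left out, the Fib_1-like sum was 1491, 1122 and 1119 CPM without hormone and 1542 to 1890 with it, which do not overlap. In the rest of these types the groups still overlapped. In ILC2 the mean log2 ratio over the PBDE levels was 0.84, and it was 0.32 with cells gated by their own markers and 0.57 with cells holding few fibroblast UMIs. In natural killer cells the log2 ratio by cluster was -0.63, 0.24 and 0.37 at the 3 PBDE levels, and with cells gated by their own markers it was 0.08, 0.38 and 0.38, so the lower mean rests on the libraries without PBDE and on how the cells were chosen. In T cells the mean log2 ratio was 0.29, and 0.51 with cells holding few fibroblast UMIs. Monocytes held the highest summed level of the tested types without hormone. With Ifi27l2a, Ifitm3 and Bst2 left out they were at 1964, 1552 and 1247 CPM, against 1787, 1530 and 2311 in macrophages. Ifi27l2a, Ifitm3 and Bst2 together made up 67.8 to 77.0% of the members' UMIs in Fib_0-like cells, 56.9 to 70.7% in macrophages and 13.9 to 26.1% in natural killer cells, so that in the first 2 of these the sum mostly follows 3 genes.

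**Figure D1:**
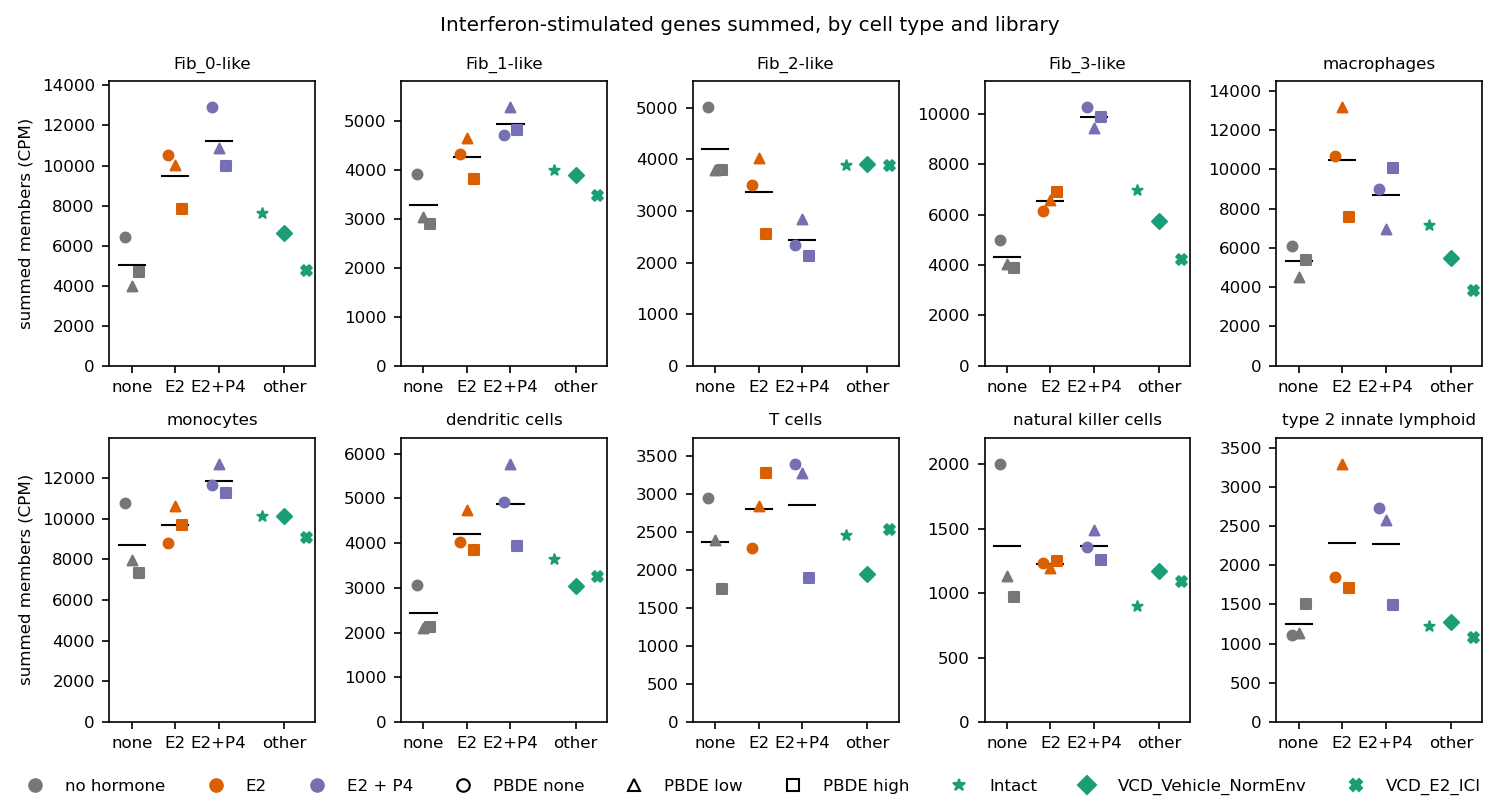
Summed CPM of the 42 members (y axis, linear from 0, scaled per panel) in each library, with a panel per cell type and the libraries set out by hormone treatment along x, the last position holding the 3 libraries outside the layout. Each point is 1 library. In Fib_0-like cells, Fib_3-like cells, macrophages and dendritic cells the E2 and E2 + P4 points all lie above the points without hormone, and in Fib_2-like cells most lie below.

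The libraries outside the layout add levels with no test. With ICI beside E2, the sum was 4775 CPM in Fib_0-like cells, 4234 in Fib_3-like cells and 3870 in macrophages, which is inside or below the range of the libraries without hormone in each. In dendritic cells it was 3262 CPM, above the libraries without hormone (2112 to 3075) and below those with it (3844 to 5781). Intact mice were at 7649, 6996 and 7183 CPM in Fib_0-like cells, Fib_3-like cells and macrophages, above every VCD library without hormone in the layout. That was below all hormone libraries in Fib_0-like cells, above those with E2 in Fib_3-like cells and above the lowest hormone library in macrophages. The VCD_Vehicle_NormEnv library, at 6632, 5749 and 5505 CPM, lay above the range without hormone in both fibroblast types and inside it in macrophages.

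Hormone against none, the mean of E2 and E2 + P4 minus no hormone with PBDE level as a covariate, was tested gene by gene with edgeR's quasi-likelihood test across all genes. Since no group was repeated, the p-values rest on the spread between libraries that is left after hormone and PBDE level are fitted. That spread mixes noise between libraries with any difference of the hormone effect between the 3 PBDE levels. In Fib_0-like cells 26 of the 42 members rose and 1 fell at an adjusted p under 0.05, where 4.42% of all 13019 genes tested rose and 3.6% fell. The median log2 fold change of the members was 0.87, against -0.01 for all genes. In 23 members every hormone library lay above every library without hormone (6.81% of all genes did so) and in 1 every one lay below (4.64%).

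By role in Fib_0-like cells, 5 of 9 IFIT, OAS and Mx effectors rose, as did 5 of 5 sensors, 1 of 3 genes of the Isg15 system, 3 of 6 GTPases, 3 of 3 membrane and secreted proteins and 9 of 13 others, while none of the 3 ADP-ribosylation genes passed the test. The largest changes were in Ifi44 (log2 fold change 3.57), the oligoadenylate synthetase Oas3 (3.23), Ifit3 (2.30), Oas2 (1.85), the RIG-I-like receptor Dhx58 (1.42), the tetherin Bst2 (1.40), Lgals3bp (1.40), Oas1a (1.35), Ifi27l2a (1.29) and the Z-nucleic acid sensor Zbp1 (1.20). Ifi44 and Oas3 were rare in Fib_0-like cells, with a mean of 0.847 and 0.842 CPM without hormone and 9.41 and 8.62 with E2 + P4. The member that fell was Ifi27, at 105, 151 and 125 CPM without hormone and 59.6 to 99.5 CPM over the hormone libraries (log2 fold change -0.67).

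Ifi27l2a, a small interferon-induced membrane protein and with Ifitm3 the most abundant member, stood in Fib_0-like cells at 1948, 1009 and 1191 CPM without hormone, 3356, 2962 and 2411 with E2 and 4483, 3697 and 3212 with E2 + P4. The lowest hormone library was above the highest library without hormone, and edgeR gave a log2 fold change of 1.29 (SE 0.12, adjusted p = 0.00272). Ifitm3, which blocks the fusion of viruses with endosomes, stood at 2319, 1656 and 1732 CPM without hormone, 3400, 3292 and 2825 with E2 and 4370, 3834 and 3718 with E2 + P4 (log2 fold change 0.90, SE 0.08, edgeR adjusted p = 0.00272). Bst2, which tethers budding virus to the cell surface, went from 427, 228 and 252 CPM to 926, 735 and 507 with E2 and 1068, 801 and 736 with E2 + P4 (log2 fold change 1.40, SE 0.12, edgeR adjusted p = 0.00234). In all 3 genes each PBDE level showed the rise on its own.

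The classical effectors were less even in Fib_0-like cells. Ifit3, an adaptor of the Ifit1 complex that binds foreign RNA caps, was at 46.4, 9.68 and 24.7 CPM without hormone, 150, 163 and 54.7 with E2 and 213, 111 and 81.5 with E2 + P4 (log2 fold change 2.30, SE 0.42, edgeR adjusted p = 0.0182). Ifit1 itself was at 132, 26.6 and 136 CPM without hormone and at 116 to 189 over the hormone libraries, so the groups overlapped and it did not pass the test (log2 fold change 0.79, SE 0.42, edgeR adjusted p = 0.276). Isg15 was at 46.5, 14.7 and 77.1 CPM without hormone and 95.3 to 186 with it, all above, but did not pass either (1.54, SE 0.47, edgeR adjusted p = 0.0823). The VCD_Low_PBDE library was the lowest for all 3 of these genes.

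Of the remaining members followed by library in Fib_0-like cells, Oasl2, an OAS-like protein, was at 88.6, 39.9 and 68.5 CPM without hormone and 117 to 171 with it (log2 fold change 1.15, SE 0.20, edgeR adjusted p = 0.0140). Gbp2, a guanylate-binding GTPase, was at 62.0, 46.9 and 49.2 CPM without hormone and 77.6 to 129 with it (log2 fold change 0.89, SE 0.10, edgeR adjusted p = 0.00438). Neither gene overlapped between the groups. Usp18, at 53.9, 37.4 and 51.9 CPM without hormone and 52.8 to 85.8 with it, overlapped, and the GTPase Igtp, at 30.5, 18.2 and 28.2 against 31.1 to 55.4, did not, and neither passed the test (log2 fold changes 0.48 and 0.62, edgeR adjusted p = 0.100 and 0.0812).

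The Fib_0-like count depended on the selection of cells, on single libraries and on 1 cluster. With no negative selection of fibroblasts 9 members rose and none fell. Without VCD_Low_PBDE 14 members rose, without VCD_E2_P4 17 and without VCD_Low_E2_P4 18, with none lowered in any of the 3. Of the 3 clusters in the class, cluster 5, led by Cxcl13, Ctla2a, Il1r2 and Irf7, held 1.56 to 10.8% of the Fib_0-like cells without hormone, 29.7 to 39.7% with E2 and 48.8 to 66.9% with E2 + P4. Left out, it took the count to 7 raised and 0 lowered and the median log2 fold change to 0.56. Within cluster 5 itself, the summed members were 8704, 6201 and 7194 CPM without hormone, 12870, 10467 and 9064 with E2 and 14481, 11423 and 12239 with E2 + P4. With Ifi27l2a, Ifitm3 and Bst2 left out they were 2686, 1838 and 2434 CPM without hormone and 2543 to 3765 with it, which overlap. Of the 42 members in cluster 5, 24 were higher than without hormone at high PBDE with either treatment and 31 to 38 at the other 4 pairs, and the median log2 ratio at high PBDE with E2 was 0.08, as it was over all genes. The libraries without hormone held 56, 20 and 23 cells of this cluster.

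**Figure D2:**
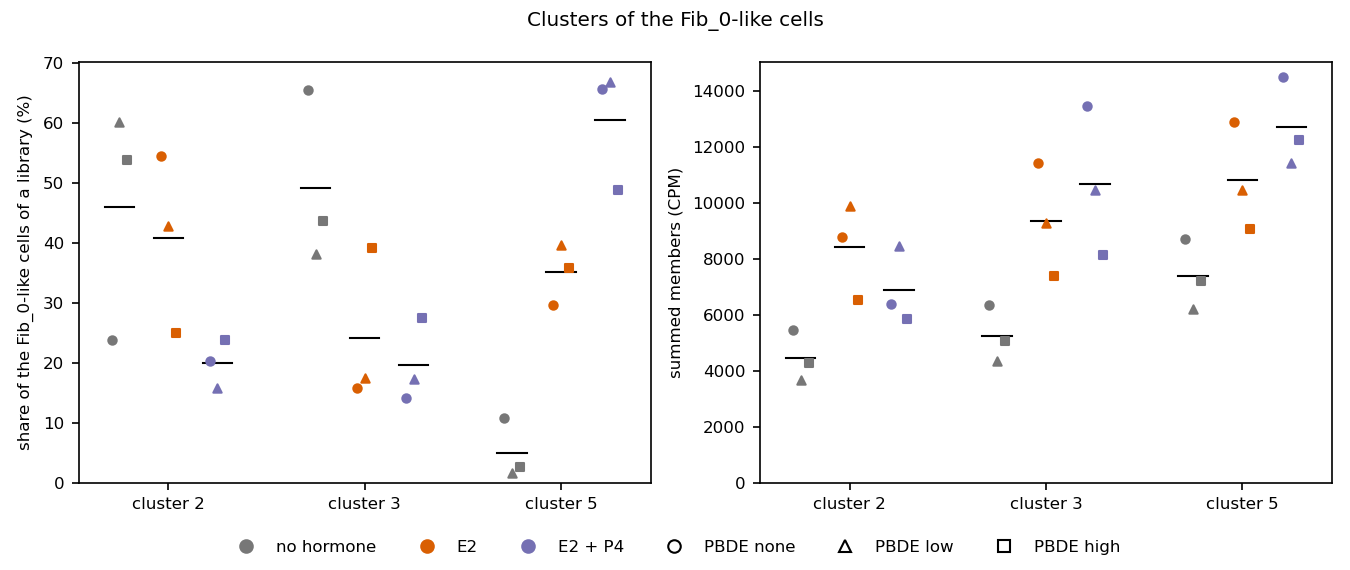
Share of the Fib_0-like cells of each library in clusters 2, 3 and 5 (left, percent) and summed CPM of the members within each cluster (right), with 1 point per library and colours for hormone treatment. Cluster 5 rises from at most 10.8% without hormone to at least 48.8% with E2 + P4, and its points are higher with hormone than without.

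Clusters 2 (led by Krtdap, Mrgprg and Uchl1) and 3 (led by Akr1c18, Il33 and Smpd3) gave the other values. In cluster 3 the sum went from 6353, 4329 and 5050 CPM to 11409, 9263 and 7397 with E2 and 13443, 10450 and 8135 with E2 + P4, above the library without hormone at each PBDE level. Of the members with at least 10 UMIs there, 32 to 40 were higher at each of these 6 pairs. The median log2 ratio was 0.22 to 1.10 over these members and 0.03 to 0.16 over all genes. At high PBDE it was 0.34 with E2 and 0.22 with E2 + P4 over the members, against 0.10 and 0.03 over all genes. The share of all genes that were higher was not counted. In cluster 2, at high PBDE with E2 + P4, 15 of 40 were higher, although the sum went from 4271 to 5826 CPM, and at low PBDE 41 of 42 (E2) and 39 of 40 (E2 + P4) were higher. The median log2 ratio of the members at these 3 pairs was -0.25, 1.64 and 1.08, against -0.07, 0.03 and 0.05 over all genes.

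Fib_3-like cells, led by Gdf10, F3 and Vit and in a single cluster, had 30 of 42 members raised and none lowered by edgeR (2.41% of all 11408 genes rose and 1.23% fell), a median log2 fold change of 0.99 and 27 members whose hormone libraries all lay above (3.27% of all genes). Raised were 5 of 9 IFIT, OAS and Mx effectors, 4 of 5 sensors, 3 of 3 genes of the Isg15 system, 2 of 3 of ADP-ribosylation, 4 of 6 GTPases, 3 of 3 membrane and secreted proteins and 9 of 13 others. The largest changes were in Ifi44 (log2 fold change 3.43), Oas3 (3.25), Ifi27l2a (2.44), Ifit3 (2.27), Isg15 (1.88), Ifit1 (1.60), Bst2 (1.57), Oas1a (1.43), the radical SAM enzyme viperin encoded by Rsad2 (1.39) and Phf11b (1.34). Ifi44 and Oas3, with means of 1.33 and 2.67 UMIs per library without hormone and 18.8 and 30.7 with it, reached the minimum mean count of 5 through the hormone libraries alone, and 28 of the 30 were at it in both groups. Leaving out any 1 library left 22 to 30 members raised and none lowered.

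Ifi27l2a was lower in Fib_3-like than in Fib_0-like cells at each treatment and PBDE level, with a larger log2 fold change. It was at 436, 225 and 219 CPM without hormone, 1028, 1149 and 945 with E2 and 2593, 1709 and 1878 with E2 + P4 (log2 fold change 2.44, SE 0.17, edgeR adjusted p = 1.5e-05). Isg15 was at 35.7, 26.3 and 56.3 CPM without hormone, 69.1, 127 and 136 with E2 and 105, 205 and 219 with E2 + P4 (log2 fold change 1.88, SE 0.19, edgeR adjusted p = 0.000213). For both genes no library with hormone overlapped those without.

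Ifit1 was in Fib_3-like cells at 259, 124 and 109 CPM without hormone, 200, 261 and 475 with E2 and 496, 977 and 1009 with E2 + P4, with overlap between E2 and no hormone (log2 fold change 1.60, SE 0.34, edgeR adjusted p = 0.0223). Ifit3 did not overlap, at 42.7, 23.7 and 60.3 CPM without hormone, 141, 127 and 103 with E2 and 281, 228 and 300 with E2 + P4. Usp18, which also damps signalling at the type I receptor, was at 11.5, 11.3 and 19.3 CPM without hormone and 21.1 to 38.2 with it (log2 fold change 1.21, SE 0.14, edgeR adjusted p = 0.000654). Of the 10 members followed by library, Igtp alone did not pass in Fib_3-like cells (log2 fold change 0.51, SE 0.14, edgeR adjusted p = 0.0618).

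**Figure D3:**
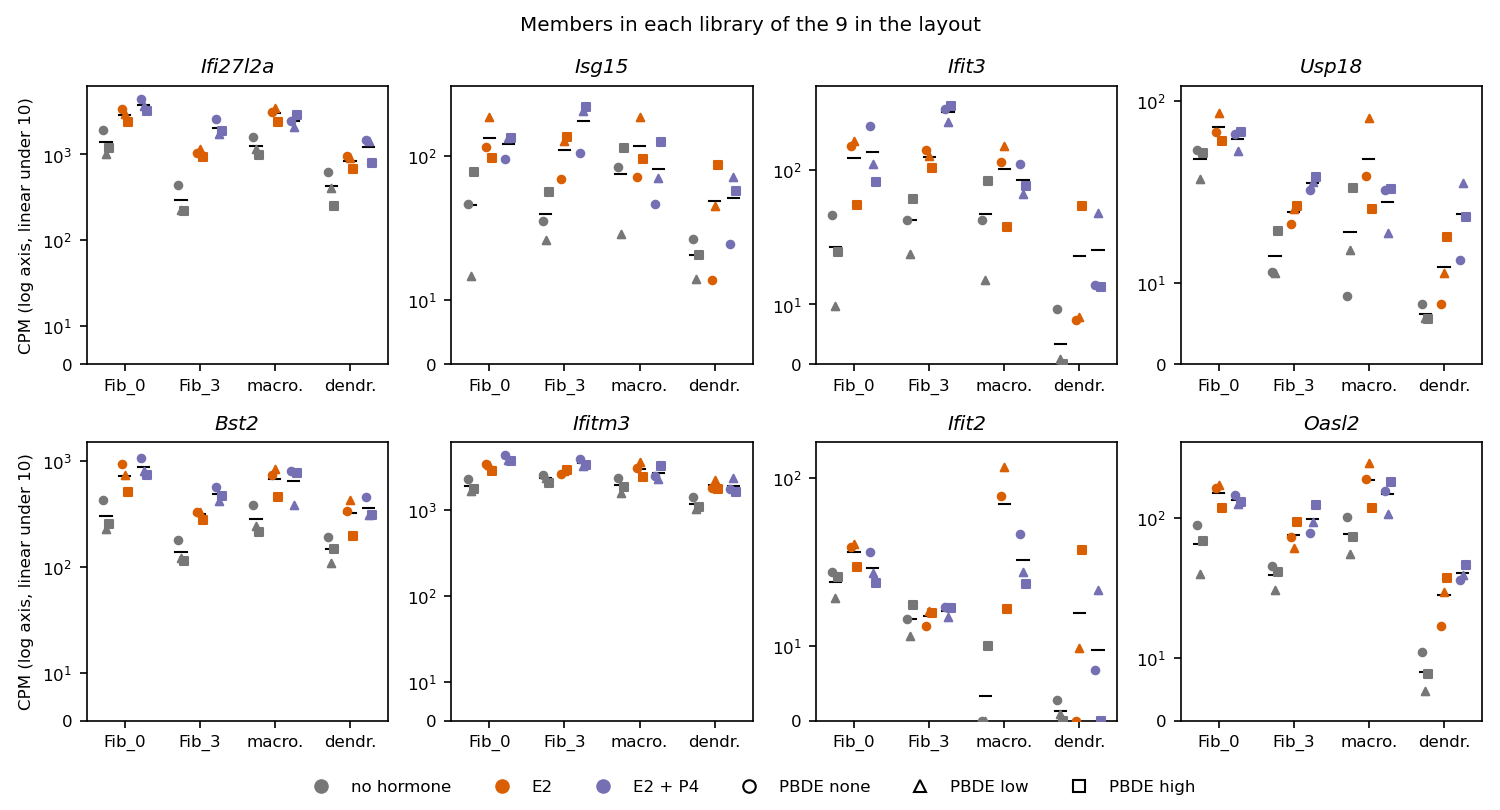
CPM of members (y axis, logarithmic above 10 and linear below) in each of the 9 libraries of the layout, for Fib_0-like and Fib_3-like cells, macrophages and dendritic cells, with a panel per gene and 1 point per library, coloured by hormone treatment. Ifi27l2a and Bst2 are separated by hormone in all 4 types, whereas Isg15 overlaps in macrophages.

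In Fib_1-like cells, led by Txnip, Cxcl14 and Smoc2 or by Cxcl1 and Fabp4, 8 of 42 members rose and none fell (1.05% of all 12154 genes rose and 0.634% fell), with a median log2 fold change of 0.43. These were Rsad2 (log2 fold change 2.72), Ifit3 (1.72), Ifit1 (1.39), the nucleotide kinase Cmpk2 (0.97), Zbp1 (0.92), Ifi27l2a (0.91), Lgals3bp (0.84) and Oasl2 (0.80). Ifit1 here did not overlap, at 43.6, 22.9 and 24.6 CPM without hormone and 60.8 to 117 with it (SE 0.22, edgeR adjusted p = 0.0154), and neither did Rsad2, at 3.73, 2.77 and 3.06 CPM against 7.49 to 43.4. The count fell to 0 without VCD_Low_PBDE, to 1 without VCD_Low_E2_P4, to 2 without VCD_High_PBDE and to 4 without VCD_Low_E2, and was 17 without VCD_Vehicle, so the breadth of the change in Fib_1-like cells rests on single libraries. With the same test, all fibroblasts taken as 1 class, named or not, gave 24 raised and 1 lowered, where 9.42% of all 15025 genes rose and 8.63% fell.

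Fib_2-like cells, with Tnc, Penk and Scg3 among the leading genes of their larger cluster, showed lower members with hormone. Of 41 tested, 25 fell and 1 rose, in a class where 16.8% of all 11729 genes fell and 17% rose, and the median log2 fold change was -0.70 (all genes -0.01). All 6 interferon-inducible GTPases fell, as did 3 of 3 ADP-ribosylation genes, 3 of 5 sensors, 2 of 3 of the Isg15 system, 2 of 8 effectors, 2 of 3 membrane and secreted proteins and 7 of 13 others. The largest falls were in Irgm1 (log2 fold change -2.04), Igtp (-1.61), the exonuclease Isg20 (-1.53), Phf11d (-1.43), Ifi47 (-1.41), Gbp2 (-1.38), Parp14 (-1.23), Parp9 (-1.13), Ifit1 (-1.07) and Rtp4 (-1.07), and Lgals3bp rose (0.37).

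Irgm1, a p47 GTPase, was at 121, 67.3 and 61.3 CPM in Fib_2-like cells without hormone and 12.2 to 32.4 with it. Igtp was at 40.5, 18.6 and 26.4 CPM without hormone and 7.88 to 11.4 with it (log2 fold change -1.61, SE 0.20, edgeR adjusted p = 0.000143), and Gbp2 at 119, 75.9 and 61.9 against 46.9, 46.0 and 56.0 with E2 and 16.2, 36.3 and 22.1 with E2 + P4 (-1.38, SE 0.23, edgeR adjusted p = 0.000887). In these 3 genes all hormone libraries lay below, as in 10 of the 41 members (9.46% of all genes). Ifitm3 overlapped, at 2684, 2346 and 2354 CPM without hormone, 2108, 2412 and 1284 with E2 and 1159, 1384 and 1035 with E2 + P4. Ifi27l2a and Isg15 did not pass the test (log2 fold changes -0.29 and -0.67, edgeR adjusted p = 0.389 and 0.207).

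The make-up of the Fib_2-like class changed with hormone. Cluster 7, led by Tnc, Penk and Igfbp2, held 98.3 to 98.5% of it without hormone, 30 to 68.7% with E2 and 2.56 to 9.62% with E2 + P4, and cluster 10, led by Igfbp2, Mfap4 and Crabp1, held the rest. Within cluster 7 the median log2 ratio of the members between E2 and no hormone was -0.78, -0.08 and 0.32 at the 3 PBDE levels, so the direction was not shared among these pairs. With E2 + P4 at high PBDE (10 cells) it was -0.18. In cluster 10 without PBDE it was -0.35 with E2 and -0.90 with E2 + P4, against 10 cells without hormone. The other pairs had fewer than 10 cells on a side. The part of the cluster shift in the lower class values was not tested. Without VCD_Vehicle 13 members fell and 1 rose, and with cells gated by their own markers 15 fell and 1 rose.

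In macrophages, whose markers such as C1qa, C1qb and Pf4 were high, 4 of 42 members rose and none fell, where 0.246% of all 8553 genes rose and 0.117% fell. The median log2 fold change was 0.88, 41 of the 42 were above 0 and 29 were raised at an unadjusted p under 0.05 (500 of all 8553 genes). The 4 were Ifit2, Lgals3bp (log2 fold change 1.36, SE 0.23), Bst2 (1.21, SE 0.22) and Ifi27l2a (1.11, SE 0.17), with edgeR adjusted p from 0.0121 to 0.0261. Without Ifit2, which reached the minimum mean count through the hormone libraries alone, 3 of the 4 calls remain. In 11 members all hormone libraries lay above (3.87% of all genes) and in 1 all below (2.4%). Of the 42 members, 3 were tested through the hormone libraries alone, so their part in these counts and in the median is not support for a rise.

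Ifi27l2a in macrophages was at 1605, 1153 and 973 CPM without hormone, 3092, 3513 and 2409 with E2 and 2430, 2110 and 2869 with E2 + P4. Bst2 was at 387, 244 and 216 CPM without hormone, 739, 831 and 455 with E2 and 798, 387 and 768 with E2 + P4, where the VCD_Low_E2_P4 library was level with VCD_Vehicle to 3 digits and above it before rounding. Ifit2, which restricts translation of foreign RNA, had 3 UMIs in all macrophages without hormone, all in VCD_High_PBDE, and so reached the minimum mean count of 5 through the hormone libraries alone, which held 336 UMIs, at 16.6 to 116 CPM in the 6 libraries, a pooled ratio of 26.5 (95% exact interval 8.98 to 129.0, counting error only). The ratio was 15.0 without VCD_Low_PBDE and 17.3 without VCD_Vehicle. Of members that did not pass, Oasl2 lay wholly above, at 101, 55.6 and 73.0 CPM against 107 to 248, while Isg15, at 84.5, 28.7 and 113 against 46.8 to 186, and Ifit1, at 12.7, 15.2 and 59.8 against 22.2 to 125, overlapped.

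The number of macrophage calls moved with the libraries. Without VCD_E2 or without VCD_Low_PBDE it was 0, without VCD_Vehicle 1 and without VCD_High_PBDE 2, while without VCD_Low_E2_P4 19 members rose and 1 fell and without VCD_High_PBDE_E2 16 rose and 1 fell. The class held 2 clusters with similar shares in both groups. In cluster 4, led by Folr2, Cd209f and F13a1, the summed members were 5208 to 7388 CPM without hormone and 8757 to 15029 with it, and in cluster 14, led by Ccl3, Ccl4 and Cxcl2, 2350 to 4886 and 3763 to 5216, which overlap.

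In dendritic cells, marked by Cd209a and class II genes or by Irf8 and Wdfy4, 5 of 40 members rose and none fell (0.118% of all 8477 genes rose and 0.0472% fell), with a median log2 fold change of 1.05. They were Oasl2 (log2 fold change 2.04, SE 0.32), Phf11d (1.62, SE 0.28), the p47 GTPase Ifi47 (1.60, SE 0.25), Ifi27l2a (1.30, SE 0.14) and Bst2 (1.20, SE 0.19), with edgeR adjusted p from 0.00489 to 0.0467. In 15 members, these 5 among them, all hormone libraries lay above (1.77% of all genes), and 30 were raised at an unadjusted p under 0.05 (281 of all 8477 genes). Of the 40 members, 5 were under the minimum mean count without hormone and were tested through the hormone libraries alone. Their part in the median and in these 2 counts is not support for a rise.

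Oasl2 in dendritic cells was at 11.1, 4.70 and 7.51 CPM without hormone, 17.1, 29.9 and 37.2 with E2 and 36.4, 39.4 and 46.2 with E2 + P4. Ifi47 was at 14.8, 9.41 and 9.39 CPM without hormone and 20.6 to 48.2 with it. Ifi27l2a was at 632, 411 and 250 CPM without hormone, 954, 916 and 670 with E2 and 1467, 1423 and 791 with E2 + P4. In all 3 genes the ranges stayed apart. Without VCD_Vehicle 14 members rose, without VCD_Low_E2 or VCD_Low_E2_P4 2 did, and without VCD_Low_PBDE, VCD_High_PBDE, VCD_High_PBDE_E2 or VCD_High_PBDE_E2_P4 1 did. In cluster 9, led by Cd209a, the sum was 2321 to 4158 CPM without hormone and 4840 to 7190 with it, and in cluster 15, led by Plbd1 and Irf8, it was 1582 to 1764 (2 libraries with 10 or more cells) and 1777 to 3524. No dendritic call was made when cells were gated by their own markers instead of clusters.

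No member passed the test in monocytes, T cells, natural killer cells or ILC2 by edgeR, nor by DESeq2. With no filter on low counts edgeR called 4 members in monocytes, 1 in T cells, 1 in natural killer cells and 2 in ILC2, and the share of all genes called that way was not counted. It called 1 in monocytes without VCD_Vehicle, 1 in T cells without VCD_E2, VCD_High_PBDE_E2 or VCD_High_PBDE_E2_P4, and 1 in ILC2 without VCD_High_PBDE or VCD_High_PBDE_E2_P4, with VCD_Vehicle_NormEnv added and with cells gated by their own markers. The share of all genes called in either direction was 0.0144% in monocytes, 0.0821% in T cells, 0.173% in natural killer cells and 0.0773% in ILC2. At an unadjusted p under 0.05, 11 of 41 members were raised in monocytes, 8 of 35 in T cells, 0 of 25 in natural killer cells (1 was lowered) and 6 of 27 in ILC2, and the median log2 fold changes were 0.53, 0.26, -0.23 and 0.50. In either direction, 342 of all 6958 genes passed that threshold in monocytes and 367 of 7305 in T cells. It was 362 of 6344 in natural killer cells and 320 of 6469 in ILC2. All hormone libraries lay above in 2 members in monocytes (1.35% of all genes) and 2 in ILC2 (1.31%), and below in 1 in natural killer cells (1.45%). The median number of cells per library behind these sums was 30 in monocytes, 91 in T cells, 61 in natural killer cells and 56 in ILC2, against 664 in Fib_0-like cells.

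Ifi27l2a shows how these types differed. Monocytes were at 3384, 2142 and 1512 CPM without hormone, 2221, 2749 and 1619 with E2 and 3938, 3887 and 3161 with E2 + P4 (log2 fold change 0.35, SE 0.16, edgeR adjusted p = 0.997), already high and overlapping. T cells were at 1130, 676 and 419 CPM without hormone and 564 to 1367 with it, also overlapping. ILC2, which secrete Il5 and Il13, were at 217, 301 and 363 CPM without hormone, 936, 2029 and 851 with E2 and 1407, 1093 and 248 with E2 + P4, so that 5 of 6 hormone libraries lay above, and the gene did not pass (log2 fold change 1.74, SE 0.37, edgeR adjusted p = 0.152).

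Natural killer cells carried few UMIs of most members. Ifi27l2a was at 138, 65.7 and 25.2 CPM there without hormone, 55.4, 66.0 and 95.7 with E2 and 210, 156 and 138 with E2 + P4. Of the 42 members, 17 fell under the minimum of 5 counts on average in natural killer cells, 15 in ILC2, 7 in T cells, 2 in dendritic cells, 1 in monocytes and 1 in Fib_2-like cells, and these were not tested. Of those tested, 7 in ILC2, 4 in monocytes, 3 in Fib_3-like cells, 2 in Fib_1-like cells and 1 each in Fib_2-like, T and natural killer cells were under it without hormone. They passed it through the hormone libraries alone. Their part in the medians, unadjusted counts and counts without overlap is not support for a rise. In ILC2, cluster 8 (led by Tnfsf8 and Il5) had summed members of 1396 to 1607 CPM without hormone and 2282 to 4168 in the 5 hormone libraries with at least 10 cells, while cluster 6 (led by Csf2 and Il5) had 832 to 1717 and 711 to 1385. The share of ILC2 in cluster 8 ranged from 25.0 to 64.7% without hormone and from 12.9 to 79.9% with it.

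**Figure D4:**
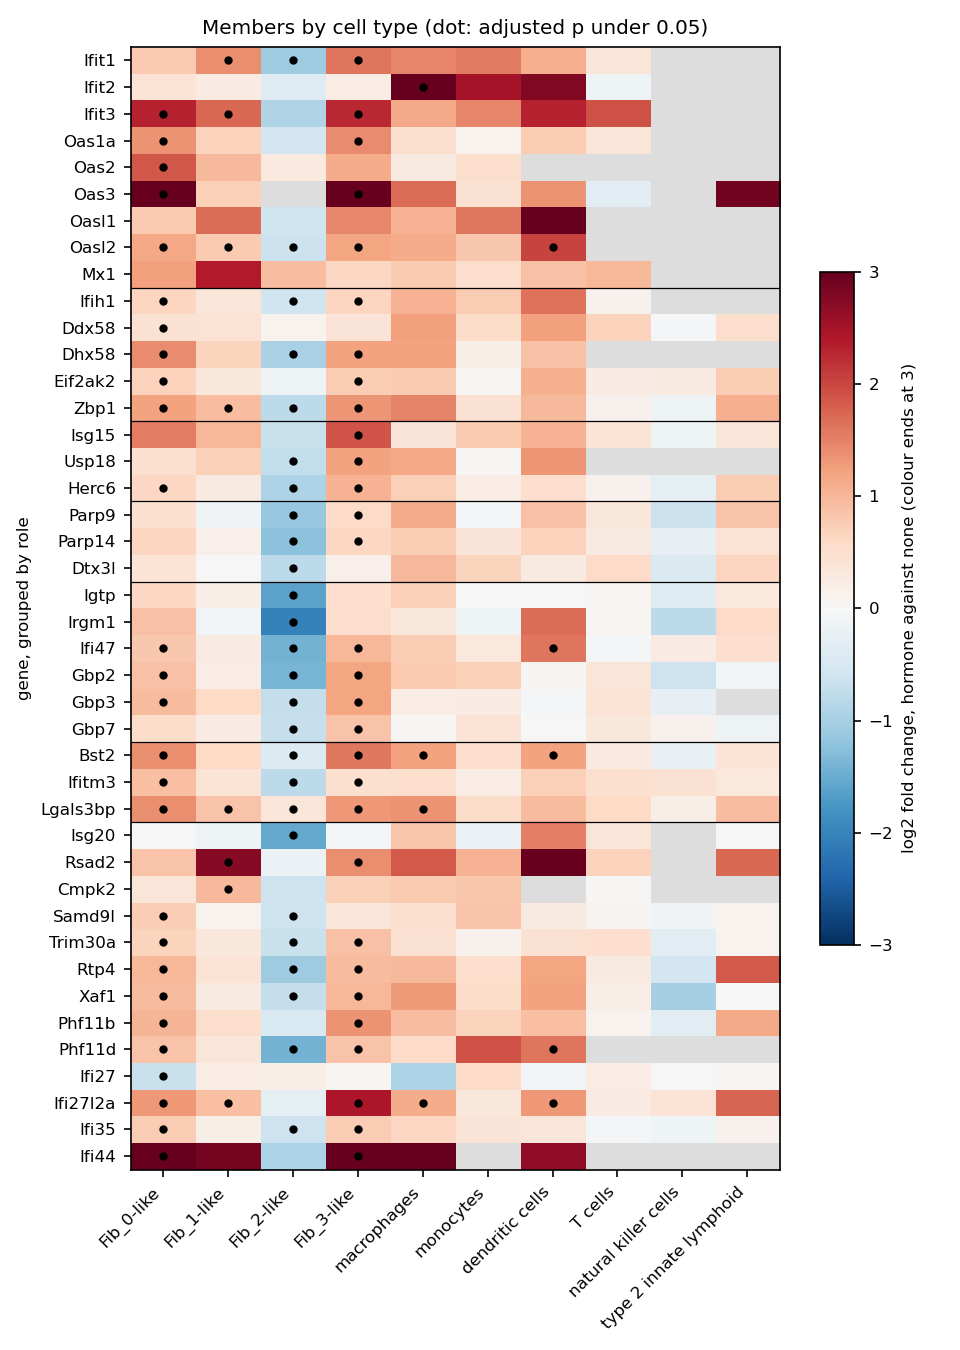
Log2 fold change of each member (rows, grouped by role) for hormone against none in each cell type (columns), on a colour scale that ends at 3 in either direction, with a dot where the adjusted p was under 0.05. Fib_0-like and Fib_3-like columns are mostly raised, the Fib_2-like column is mostly lowered, and macrophage and dendritic columns are mostly above 0 with 4 and 5 dots.

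The libraries also fell into sets by a code in the names of the deposited matrices, whose meaning the labels do not give. VCD_Vehicle, VCD_E2, VCD_E2_P4 and VCD_Low_PBDE carried the first code and the other 5 of the layout the second. With the code as a term beside PBDE level, which amounts to leaving out VCD_Low_PBDE, 14 members rose in Fib_0-like cells, 0 in Fib_1-like cells, 23 in Fib_3-like cells, 0 in macrophages and 1 in dendritic cells, and 29 fell in Fib_2-like cells. In the diet without PBDE all 3 libraries carried the first code and in the high diet all 3 the second, and the log2 ratio of the summed members in Fib_0-like cells, the mean of both hormone libraries against none, was 0.86 and 0.92 there.

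RNA from fibroblasts freed into the suspension could raise members in the immune sums. Judged by fibroblast markers, such RNA could have carried 0.718 to 1.39% of the macrophage members' CPM without hormone and 0.880 to 2.94% with it, and 1.63 to 1.97% and 1.14 to 2.47% in dendritic cells. In T cells, natural killer cells and ILC2 it reached at most 7.98, 15.4 and 7.53%. These shares are of the summed members and were not worked out for single genes. Fibroblast RNA made up 0.968 to 2.21% of the natural killer sums with hormone. For a gene as abundant in fibroblasts as Ifi27l2a the share in natural killer cells could be larger, and it was not tested. In the other direction 4 immune markers summed to 2.28 to 8.20 CPM in the fibroblast classes, against a median of 2838 CPM in the immune sums, with Ptprc and Cd52 at 0 by the selection of fibroblasts.

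Whether the hormone effect differed between types was tested directly, as the interaction of cell type with hormone with library as a block, against Fib_0-like cells. In Fib_3-like cells 3 members differed upwards and 1 downwards (0.846 and 1.41% of all genes), and in macrophages 1 and 2 (0.0855 and 0.256%). The 1 upwards in macrophages was Ifit2, which reached the minimum mean count through the hormone libraries alone. No upward call remains there without it. In dendritic cells no member differed (0.287% of all genes in either direction). At an unadjusted p under 0.05 by edgeR, 7 members were higher and 6 lower there, where 785 of all 8006 genes passed in either direction. The median difference over the members was 0.04 in Fib_3-like cells, -0.10 in macrophages and -0.09 in dendritic cells. A difference that missed the threshold does not show that the effects were alike.

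The effect on Ifi27l2a was 1.13 higher on the log2 scale in Fib_3-like than in Fib_0-like cells (SE 0.12, edgeR adjusted p = 0.000498), that on Usp18 0.70 higher, that on Ifi27 0.72 higher and that on Ifitm3 lower (-0.42). Leaving out 1 library left 1 to 4 of these calls, with 1 without VCD_E2_P4, VCD_Low_PBDE or VCD_Low_E2_P4, 4 without VCD_Vehicle and 2 without any of the others. In macrophages the effect on Ifit2, with 3 UMIs there without hormone, was higher (3.94) and those on Oas2 (-1.64) and Isg15 (-1.25) lower, with edgeR adjusted p from 0.0257 to 0.0403. Since Ifit2 reached the minimum mean count through the hormone libraries alone, its call is not support for a difference. The macrophage differences fell to 0 without VCD_E2, VCD_Low_PBDE or VCD_Low_E2, and to 1 without VCD_Vehicle, VCD_E2_P4 or VCD_High_PBDE_E2_P4.

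Most differences called in the other types were downwards. In monocytes 5 members differed downwards (0.316% of all genes, with 0.105% upwards), namely Oas3 (-2.82), Oas1a (-1.31), Ifi27l2a (-0.97), Bst2 (-0.90) and Ifitm3 (-0.71). In T cells 6 were lower and 1 higher (0.543 and 0.171%), in natural killer cells 11 were lower and none higher (0.935 and 0.328%), and in ILC2 1 was lower, Isg15 at -1.53 (0.386%, with 0.0322% higher). In Fib_1-like cells 6 were lower and 1, Ifi27, higher (1.8 and 0.91%), and in Fib_2-like cells 35 of 41 were lower and 1 higher (14.5 and 14.1%). Isg15 differed downwards in T cells (-1.58), natural killer cells (-2.26), Fib_2-like cells (-2.34), ILC2 and macrophages. In Fib_2-like cells 34 to 38 members differed when any 1 library was left out.

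These counts in the other types rested on single libraries. Without VCD_Low_PBDE no member differed in Fib_1-like cells, monocytes, T cells or ILC2 and 2 did in natural killer cells. In Fib_1-like cells the count was 2 without VCD_E2_P4, 3 without VCD_Low_E2 or VCD_Low_E2_P4, 15 without VCD_High_PBDE and 17 without VCD_High_PBDE_E2. In monocytes it was 2 without VCD_Vehicle or VCD_Low_E2 and 3 without VCD_E2_P4, VCD_Low_E2_P4 or VCD_High_PBDE_E2_P4. In T cells it was 1 without VCD_Low_E2 and 16 without VCD_High_PBDE_E2. In natural killer cells it was 4 without VCD_Vehicle, 5 without VCD_E2_P4 and 6 without VCD_Low_E2. In ILC2 the call remained in the fits without VCD_Vehicle, VCD_E2_P4 or VCD_High_PBDE_E2 and was lost in the other 6.

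**Figure D5:**
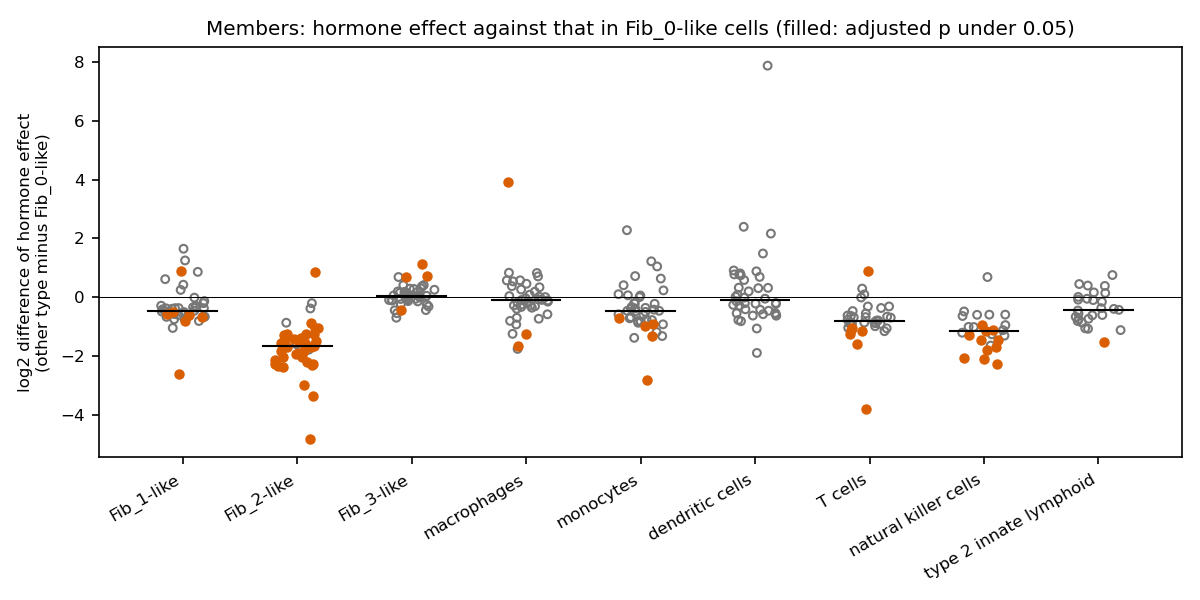
Difference of the hormone effect on each member from that in Fib_0-like cells (y axis, log2) for the 9 other cell types along x, with 1 point per member, filled where the adjusted p was under 0.05. Points for Fib_3-like cells, macrophages and dendritic cells scatter around 0, and those for Fib_2-like and natural killer cells lie mostly below it.

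E2 alone and E2 + P4 were also set against no hormone, and these 2 comparisons share the libraries without hormone. With E2 alone edgeR raised 18 of 42 members in Fib_0-like cells, 5 in Fib_1-like cells, 17 in Fib_3-like cells and 5 in macrophages and lowered none of them, where 1.33, 0.272, 0.649 and 0.292% of all genes rose and 0.568, 0.181, 0.324 and 0.117% fell. In Fib_2-like cells 8 fell (6.62%) and 1 rose (8.87%). With E2 + P4, 22 rose and 1 fell in Fib_0-like cells (5.1 and 3.22%), and 4 rose in Fib_1-like cells, 33 in Fib_3-like cells, 1 in macrophages and 7 in dendritic cells, with none lowered, where 0.856, 2.73, 0.14 and 0.236% of all genes rose and 0.354, 1.08, 0.0468 and 0.059% fell. In Fib_2-like cells 24 fell and none rose (18.2 and 18.8%).

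In dendritic cells no gene of any kind passed with E2 alone by edgeR (0%), where 22 members were raised at an unadjusted p under 0.05. In either direction, 467 of all 8477 genes passed that unadjusted threshold. In monocytes, T cells, natural killer cells and ILC2 no member passed in either comparison by edgeR, where 0.0575, 0.0548, 0.0473 and 0.0773% of all genes were called for E2 and 0, 0.219, 0.299 and 0.0155% for E2 + P4. At an unadjusted p under 0.05, 8, 5, 1 and 4 members were raised there for E2 and 12, 5, 1 and 11 for E2 + P4, with 1 lowered in natural killer cells for E2 + P4. In either direction, 364 of all 6958, 351 of 7305, 334 of 6344 and 344 of 6469 genes passed that threshold for E2. For E2 + P4 it was 358, 450, 362 and 311 genes. Over the 10 types together the E2 count of 54 fell to 14 without VCD_Low_E2, 20 without VCD_Low_PBDE and 29 without VCD_E2.

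With E2 alone the members with the largest changes among those called were, in Fib_0-like cells, Ifi44 (log2 fold change 3.35), Oas3 (2.92), Oas2 (1.78), Dhx58 (1.43), Oas1a (1.28), Bst2 (1.22), Lgals3bp (1.21), Oasl2 (1.21), Zbp1 (1.17) and Ifi27l2a (1.06). In Fib_3-like cells they were Oas3 (2.95), Ifi27l2a (1.94), Ifit3 (1.70), Isg15 (1.53), Bst2 (1.24), Oas1a (1.18), Zbp1 (0.99), Lgals3bp (0.97), Oasl2 (0.96) and Usp18 (0.92). The 8 that fell in Fib_2-like cells were Irgm1 (-1.79), Igtp (-1.62), Isg20 (-1.21), Ifi47 (-1.15), Phf11d (-1.01), Parp9 (-0.79), Parp14 (-0.76) and Zbp1 (-0.68), and Lgals3bp (0.53) rose.

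With E2 + P4 the leading members in Fib_0-like cells were Ifi44 (3.79), Oas3 (3.55), Ifit3 (2.38), Oas2 (1.93), Lgals3bp (1.60), Bst2 (1.58), Ifi27l2a (1.52), Oas1a (1.42), Dhx58 (1.41) and Zbp1 (1.24), and the one that fell was Ifi27 (-0.83). In Fib_3-like cells they were Ifi44 (3.89), Oas3 (3.55), Ifi27l2a (2.93), Ifit3 (2.84), Ifit1 (2.34), Isg15 (2.23), Rsad2 (2.00), Bst2 (1.90), Phf11b (1.77) and Oas1a (1.68). Without the members that reached the minimum mean count through the hormone libraries alone (Oas3, and with E2 + P4 Ifi44), 16 of the 17 Fib_3-like calls for E2 and 31 of the 33 for E2 + P4 remain. In Fib_2-like cells the largest falls were in Irgm1 (-2.29), Gbp2 (-1.91), Isg20 (-1.86), Phf11d (-1.85), Parp14 (-1.70), Ifi47 (-1.68), Igtp (-1.59), Rtp4 (-1.56), Parp9 (-1.48) and Dhx58 (-1.33).

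The 5 macrophage members raised with E2 alone were Ifit2, Ifi44, Lgals3bp (log2 fold change 1.43), Ifi27l2a (1.22) and Bst2 (1.22), and Ifi27l2a (1.00) was the one raised with E2 + P4. Ifit2 and Ifi44 had means of 1 and 1.67 UMIs per library there without hormone and 56 and 46.8 with it, and so reached the minimum mean count through the hormone libraries alone, which leaves 3 of the 5 calls. In dendritic cells E2 + P4 raised Oasl1, Oasl2 (2.32), Irgm1 (2.10), Ifi47 (1.98), Phf11d (1.65), Ifi27l2a (1.55) and Bst2 (1.29). Oasl1, which limits translation of Irf7, had no UMI in dendritic cells of the 3 libraries without hormone and 51 over the 6 with hormone, which alone took it past the minimum, so that 6 of the 7 calls remain without it. It was at 2.13 to 21.6 CPM with hormone, at least 7.45-fold higher against a floor of 3 UMIs over the group, and at least 4.44-fold without VCD_Vehicle and 4.49-fold without VCD_Low_PBDE. In Fib_1-like cells E2 raised Rsad2 (3.08), Ifit3 (2.06), Ifit1 (1.63), Cmpk2 (1.20) and Zbp1 (1.04), while E2 + P4 raised Rsad2 (2.36), Ifi27l2a (1.34), Lgals3bp (0.99) and Ifitm3 (0.55).

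Adding P4 to E2 was tested as E2 + P4 minus E2. In Fib_3-like cells 5 members rose further and none fell (0.131 and 0.0614% of all genes), namely Ifit3 (log2 fold change 1.13, SE 0.19), Ifi27l2a (0.99, SE 0.17), Rtp4 (0.83, SE 0.14), Gbp2 (0.82, SE 0.14) and Lgals3bp (0.68, SE 0.12), with edgeR adjusted p from 0.0404 to 0.0413, and 31 of 42 were raised at an unadjusted p under 0.05 (592 of all 11408 genes). For all 5 the 3 libraries with P4 lay above the 3 with E2 alone, such as 326, 348 and 346 CPM against 189, 184 and 227 for Gbp2. In Fib_2-like cells 6 fell further and none rose (3.28 and 2.09%), namely Rtp4 (-0.98), Parp14 (-0.94), the RNA sensor Ifih1 (-0.90), Trim30a (-0.81), Ifitm3 (-0.69) and Isg20 (-0.65). The Fib_3-like count was 0 without VCD_E2, VCD_Low_E2, VCD_Low_E2_P4 or VCD_High_PBDE_E2_P4, 1 without VCD_E2_P4, 8 without VCD_High_PBDE and 10 without VCD_Vehicle or VCD_Low_PBDE. The Fib_2-like count was 0 without VCD_E2_P4 or VCD_Low_E2, 2 without VCD_E2 or VCD_Low_E2_P4 and 3 without VCD_High_PBDE_E2_P4.

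In the other types but natural killer cells no member was called for E2 + P4 against E2 by edgeR. Of all genes 0.108% were called in Fib_0-like cells, 0.00823% in Fib_1-like cells, 0.0702% in macrophages, 0% in monocytes and dendritic cells, 0.219% in T cells and 0.0309% in ILC2. At an unadjusted p under 0.05, 5 members were raised in Fib_0-like cells, 2 in Fib_1-like cells (2 lowered), 0 in macrophages (5 lowered), 4 in monocytes (1 lowered), 8 in dendritic cells, 2 in T cells and 2 in ILC2. In either direction, 1274 of all 13019 genes passed that threshold in Fib_0-like cells, 983 of 12154 in Fib_1-like cells and 451 of 8553 in macrophages. It was 454 of 6958 in monocytes, 439 of 8477 in dendritic cells, 410 of 7305 in T cells and 330 of 6469 in ILC2. DESeq2 called 1 in Fib_0-like cells, 1 in Fib_1-like cells and 0 in the other 5 types. In natural killer cells Ifi27l2a rose (log2 fold change 1.25, SE 0.26, edgeR adjusted p = 0.0350), where 0.142% of all genes rose and 0.0315% fell, from 55.4, 66.0 and 95.7 to 210, 156 and 138 CPM. That call was lost when any 1 of the 6 hormone libraries except VCD_High_PBDE_E2, or VCD_Low_PBDE, was left out, and with DESeq2. How much of the Ifi27l2a in natural killer cells came from fibroblast RNA was not tested.

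Members were also counted cell by cell. After each cell was thinned to 5000 UMIs, Isg15 was seen in 5.22 to 15.4% of Fib_0-like cells without hormone, 24.1 to 38.3% with E2 and 27.6 to 34.5% with E2 + P4 (16.7 to 31.9%, 42.5 to 69.0% and 51.5 to 57.9% before thinning). Ifit3 was seen in 5.37 to 8.97% of Fib_3-like cells without hormone, 16.4 to 22.9% with E2 and 24.5 to 33.2% with E2 + P4 (11.7 to 17.8%, 25.7 to 35.8% and 34.1 to 42.6% before). No cell type here is known to lack these genes, so no background share could be set. At the same depth, Ifit3 was seen in 5.41 to 8.50%, 2.02 to 8.29% and 2.97 to 10.3% of Fib_2-like cells. The median number of member UMIs per thinned Fib_0-like cell was 17 to 28 without hormone, 34 to 46 with E2 and 43 to 61 with E2 + P4. The 10% of cells richest in members held 21.5 to 25.3%, 19.5 to 21.3% and 19.1 to 20.9% of those UMIs.

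Upstream genes of the pathway were read from lists chosen with earlier results known. Among 8 transcription factors Irf7, the amplifier of type I interferon production, rose in Fib_0-like cells (log2 fold change 2.35, SE 0.16, edgeR adjusted p = 0.00129), Fib_1-like cells (0.93), Fib_3-like cells (2.09), macrophages (1.59) and dendritic cells (2.45), the types in which more than 1 member rose. Its mean in dendritic cells was 15.8 CPM without hormone, 61.5 with E2 and 115 with E2 + P4. Whether Irf7 acted on the members or only rose together with them was not tested. Stat2 (0.61) and Irf9 (0.46) rose in Fib_0-like cells. In Fib_2-like cells, where 16.8% of all genes fell, Stat2 (-0.94) and Irf9 (-1.08) fell.

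For hormone against none, the one ligand called was Il6, which fell in Fib_2-like cells (-0.86). Of 7 receptors and kinases tested, Jak2 rose in Fib_0-like cells (0.32), and in Fib_2-like cells Ifnar1 (0.46) and Ifngr2 (1.30) rose while Ifnar2 (-0.72) and Jak1 (-0.34) fell. In this comparison 17% of all genes rose and 16.8% fell in Fib_2-like cells, so calls in that class were common among genes of any kind. In Fib_0-like cells 4.42% rose and 3.6% fell. Of the inhibitors, Socs1 (-0.57) and Ptpn2 (-0.54) fell in Fib_0-like cells, and Socs1 (-0.50) and Socs3 (-1.82) in Fib_2-like cells. Of the sensors and adaptors none passed in Fib_0-like or Fib_3-like cells in that comparison, whereas with E2 + P4 against none Tmem173 (0.40) rose in Fib_0-like cells and Tlr3 (0.99) in Fib_3-like cells. Myd88 (-1.60) and Mb21d1 (-0.79) fell in Fib_2-like cells for hormone against none. No receptor, kinase, inhibitor, sensor or adaptor passed in any immune type.

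A further list of other interferon-induced genes was counted in the same way. It held 19 raised of 28 tested in Fib_0-like cells (4.42% of all genes rose), 2 of 26 in Fib_1-like cells (1.05%) and 11 of 27 in Fib_3-like cells (2.41%). In macrophages 1 of 21 rose (Ly6a, log2 fold change 2.61, with 0.246% of all genes) and in dendritic cells 0 of 21 (0.118%). None was lowered in these types, where 3.6, 0.634, 1.23, 0.117 and 0.0472% of all genes fell. In Fib_2-like cells 1 rose and 14 fell of 26 (17 and 16.8% of all genes). In Fib_3-like cells the chemokine Cxcl10, which draws T cells, had means of 66.0, 235 and 549 CPM without hormone, with E2 and with E2 + P4 (2.53, SE 0.25, edgeR adjusted p = 0.000211). Cxcl9, a related chemokine, was the gene raised in Fib_2-like cells (3.41), from a mean of 2.33 CPM without hormone to 10.7 with E2 and 91.5 with E2 + P4, with overlap between libraries.

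The interferons themselves were sparse. No UMI of Ifna1, Ifna2, Ifna4, Ifne, Ifnl2 or Ifnl3 was counted in the 10 cell types over the 12 libraries. Ifng was counted mostly in T cells (2242 UMIs), then natural killer cells (519), dendritic cells (220) and ILC2 (173), and its test gave no call in any type. Ifnb1 (chromosome 4, 88522025 to 88522774, minus strand, GENCODE M21 on GRCm38) had 305 UMIs in fibroblasts of the 12 libraries. Of these, 125 were in Fib_0-like cells and 180 in fibroblasts outside the 4 named types, 110 of them from 1 cell of VCD_Low_E2. The other 9 named types held 2 UMIs, 1 in dendritic cells and 1 in monocytes.

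In Fib_0-like cells Ifnb1 had 0 UMIs in each of the 3 libraries without hormone (0 of 2711 cells, which allows a share of cells with a UMI of up to 0.111%). In the hormone libraries it had 4, 14 and 4 UMIs with E2 and 70, 16 and 9 with E2 + P4, 117 in all, from 61 of 4523 cells (1.35%). Of these 61 cells, 51 were in cluster 5. The pooled level was 1.27 CPM with hormone, at least 20.6-fold higher than the floor of 3 UMIs over the cells without hormone. The bound was 10.5-fold without VCD_E2_P4 (0.653 CPM) and 10.2-fold without VCD_Low_PBDE, and 14.5-fold to 24.0-fold without any 1 of the others. Intact and VCD_Vehicle_NormEnv had 4 UMIs each (0.405 and 0.248 CPM) and VCD_E2_ICI had 0. VCD_Vehicle_NormEnv, also without hormone, held these UMIs in 4 of 864 cells. Its level was above the floor of 0.062 CPM and below the lowest hormone library (0.365 CPM in VCD_High_PBDE_E2). The share limit and the fold bounds therefore cover the 3 layout libraries without hormone only. Over all fibroblasts, named or not, the libraries without hormone held 4 UMIs (1 in VCD_Vehicle and 3 in VCD_Low_PBDE) and those with hormone 287.

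The edgeR test of Ifnb1 in Fib_0-like cells gave adjusted p = 0.0515 for hormone against none, 0.142 for E2 against none and 0.0380 for E2 + P4 against none. Ifnb1 reached the minimum mean count through the hormone libraries alone, so these values are not support for a difference. The third was over the threshold without VCD_Vehicle, VCD_E2_P4, VCD_Low_PBDE, VCD_High_PBDE or VCD_High_PBDE_E2_P4 (edgeR adjusted p = 0.0557 to 0.120). Over the alternatives, added after the data were seen, the first ran from 0.000271 with DESeq2 to 0.173 by edgeR with the library code as a term.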

How the data were processed

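The deposited matrices held UMI counts per gene and cell for 12 libraries of dissociated mammary glands, which per the labels and the submitters' processing notes the authors made from 10x Chromium 3′ libraries with Cell Ranger 3.1.0 on mm10. Cell Ranger drops reads that map to more than 1 place, so near-identical genes (Phf11b and Phf11d, Oas1a, Ifit3 and Ifit3b, Gbp2, Trim30a, Ifi27l2a) may be undercounted. A barcode was kept as a cell when it had 500 genes or more, 1000 UMIs or more and no more than 5% of UMIs from mitochondrial genes.

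The counts were clustered (Louvain, resolution 1, 3000 variable genes, 30 components, 20 neighbours, Python 3.11.15, numpy 2.4.6, scipy 1.17.1, igraph 0.11.9), first over all cells and then within immune and fibroblast cells, leaving out the members and other interferon genes. Fibroblasts were the cells without a UMI of the negative selection genes that the study's methods name. Doublets were not removed, except in 1 alternative.

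Counts were summed per library and type, with at least 10 cells per library. Sums of the 9 libraries of the layout were tested with edgeR 4.0.16 (R 4.3.3, quasi-likelihood, TMM, genes with a mean of at least 5 counts), with PBDE level as covariate and Benjamini-Hochberg adjustment over all genes at 0.05. Differences between types used an interaction with library as a block. The pipeline was tested on simulated sums with 200 genes changed. Each group is 1 library, so the p-values rest on the spread between libraries left after the terms of the fit.

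CPM are UMIs scaled to the total of the sum, and intervals and floors (3 counts) cover counting error only. The genes, gene lists and tests were chosen with earlier results of these data known. All 43 members were accounted for by role. Of those past the threshold all were named where there were at most 10, and otherwise the 10 with the largest change of the same sign at each PBDE level. Values per library were given for Ifi27l2a, Isg15, Ifit1, Ifit3, Usp18, Oasl2, Bst2, Ifitm3, Gbp2 and Igtp, and at most 5 members were named per difference. Other genes named with values were chosen after their values were seen. Alternatives were DESeq2 1.42.0, no TMM, no filter, no PBDE term, the library code as a term, VCD_Vehicle_NormEnv added, other rules for choosing cells and leaving out each library. One gene of the pathway lists is not reported here.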

Additional observations from a re-analysis of the deposited data

Results flagged for a closer look

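Of 110 sets of 6 hormone libraries checked, 10 held a library whose gap to its nearest neighbour was large for the range of the set. Chance gives about 1 in 20 such sets. In macrophages it was Usp18 in VCD_Low_E2 (79.8 CPM). In monocytes VCD_High_PBDE_E2 stood apart for Ifit1 (310 CPM), Usp18 (68.2 CPM) and Gbp2 (292 CPM). In dendritic cells Ifit1 did in VCD_High_PBDE_E2 (57.8 CPM) and Gbp2 in VCD_High_PBDE_E2_P4 (73.4 CPM). In T cells Gbp2 did in VCD_High_PBDE_E2 (121 CPM) and Ifitm3 in VCD_Low_E2_P4 (125 CPM). In ILC2 the VCD_E2_P4 library stood apart for Ifit1 (41.5 CPM) and Ifit3 (12.3 CPM).

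The interaction test against Fib_0-like cells called a difference in the hormone effect for 7 members in Fib_1-like cells, 36 in Fib_2-like cells, 4 in Fib_3-like cells, 3 in macrophages, 5 in monocytes, 7 in T cells, 11 in natural killer cells and 1 in ILC2. The log2 differences named in Fib_1-like cells were those of Oas3 (-2.60), Ifi27 (0.90), Bst2 (-0.80), Xaf1 (-0.68) and Ifi35 (-0.58). In Fib_2-like cells they were those of Ifi44 (-4.80), Ifit3 (-3.37), Irgm1 (-2.97), Dhx58 (-2.36) and Isg15 (-2.34). In Fib_3-like cells they were Ifi27l2a (1.13), Ifi27 (0.72), Usp18 (0.70) and Ifitm3 (-0.42).

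Among immune cells, macrophages differed in Ifit2 (3.94), Oas2 (-1.64) and Isg15 (-1.25). Ifit2 there reached the minimum mean count through the hormone libraries alone, so its call is not support for a difference. Monocytes differed in Oas3 (-2.82), Oas1a (-1.31), Ifi27l2a (-0.97), Bst2 (-0.90) and Ifitm3 (-0.71). T cells differed in Oas3 (-3.79), Isg15 (-1.58), Zbp1 (-1.25), Bst2 (-1.16) and Ifi27l2a (-1.10). Natural killer cells differed in Isg15 (-2.26), Xaf1 (-2.11), Irgm1 (-2.05), Rtp4 (-1.79) and Bst2 (-1.68), and ILC2 in Isg15 (-1.53).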

How the results depend on the processing

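The median log2 fold change of the members stayed above 0 in Fib_0-like and Fib_3-like cells and below 0 in Fib_2-like cells under each alternative run, although with cells gated by their own markers the summed level in Fib_2-like cells at low PBDE had a log2 ratio of 0.06, whereas the counts of calls in the small immune classes moved with single libraries and with the filter, and the cause was not tested. Each count below is of members called in either direction, and the share of all genes called was not counted for the alternatives. In the tests of hormone against none, leaving out 1 library gave 14 to 32 calls in Fib_0-like cells, 0 to 17 in Fib_1-like cells, 14 to 29 in Fib_2-like cells, 22 to 30 in Fib_3-like cells, 0 to 20 in macrophages, 0 to 1 in monocytes, 1 to 14 in dendritic cells, 0 to 1 in T cells, 0 in natural killer cells and 0 to 1 in ILC2. For E2 + P4 against E2 it gave 0 to 7 in Fib_2-like cells, 0 to 10 in Fib_3-like cells, 0 in Fib_0-like cells, Fib_1-like cells, monocytes and dendritic cells, and 0 to 1 in the other classes. For the differences from Fib_0-like cells it gave 0 to 17 in Fib_1-like cells, 34 to 38 in Fib_2-like cells, 1 to 4 in Fib_3-like cells, 0 to 3 in macrophages, 0 to 5 in monocytes, 0 in dendritic cells, 0 to 16 in T cells, 2 to 14 in natural killer cells and 0 to 1 in ILC2. Over the 10 classes together it gave 14 to 74 calls for E2 against none (54 with all libraries) and 67 to 108 for E2 + P4 against none (92).

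With DESeq2, E2 + P4 against E2 gave 1 call in Fib_0-like, 1 in Fib_1-like and 8 in Fib_3-like cells and 0 in natural killer cells. With VCD_Vehicle_NormEnv added, hormone against none gave 14 in macrophages and 1 in ILC2, and E2 + P4 against E2 gave 1 in Fib_3-like cells and 0 in natural killer cells. With cells gated by their own markers, hormone against none gave 16 in Fib_2-like cells, 0 in dendritic cells and 1 in ILC2, E2 + P4 against E2 gave 0 in Fib_2-like, Fib_3-like and natural killer cells, and the differences were 17 in Fib_1-like cells, 2 in monocytes, 0 in T cells, 1 in natural killer cells and 3 in ILC2. With cells holding few fibroblast UMIs, E2 + P4 against E2 gave 0 in natural killer cells, and the differences were 1 in T cells and 3 in natural killer cells. That choice was not run for macrophages, monocytes and dendritic cells, which kept too few cells. With doublets removed, E2 + P4 against E2 gave 8 in Fib_3-like cells. With the library code as a term, hormone against none gave 14 in Fib_0-like and 0 in Fib_1-like cells, 0 in macrophages and 1 in dendritic cells, E2 + P4 against E2 gave 10 in Fib_3-like cells and 0 in natural killer cells, and E2 against none gave 20 over all classes. Without TMM, E2 + P4 against E2 gave 0 in Fib_3-like cells. Without the PBDE term, hormone against none gave 2 in macrophages and 2 in dendritic cells, E2 + P4 against E2 gave 3 in Fib_2-like, 0 in Fib_3-like and 0 in natural killer cells, and E2 against none gave 29 over all classes.

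With no filter on low counts, hormone against none gave 18 in Fib_1-like cells, 27 in macrophages, 4 in monocytes, 23 in dendritic cells, 1 in T cells, 1 in natural killer cells and 2 in ILC2. Whether calls rose as much over all genes was not counted, so the higher counts without the filter are not a result about the members. E2 + P4 against E2 then gave 1 in Fib_1-like cells, 13 in Fib_2-like cells, 18 in Fib_3-like cells, 4 in macrophages, 1 in monocytes, 1 in dendritic cells and 1 in ILC2. The differences were 14 in Fib_1-like cells, 5 in macrophages, 4 in dendritic cells, 11 in T cells and 2 in ILC2, and over all classes E2 against none gave 134 and E2 + P4 against none 158. With no negative selection of fibroblasts, hormone against none gave 9 in Fib_0-like cells, E2 + P4 against E2 gave 0 in Fib_2-like cells, and the differences were 0 in Fib_1-like and 2 in Fib_3-like cells. Without the Fib_0-like cluster led by Cxcl13 and Irf7, a choice made after the data were seen, hormone against none gave 7 in Fib_0-like cells, and the differences were 0 in Fib_1-like cells, macrophages, monocytes and ILC2, 1 in T cells and 5 in natural killer cells.

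Among 3311 values for single genes, 2647 kept their direction and side of the threshold, 663 kept the direction and lost the call, and 1 turned, Bst2 in Fib_2-like cells gated by their own markers (0.12 against -0.42). No paired analysis was possible because every group is 1 library and all replicate numbers are 1, beyond the match by PBDE level, which is a term in the tests except where it was left out as an alternative. Depth limited which members could be tested, since 17 in natural killer cells and 15 in ILC2 fell under the minimum mean count.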

Other observations

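Cell types with too few cells for a test were pooled over the 3 libraries of each hormone treatment and are given as values. Neutrophils held 5180 CPM of the summed members without hormone (25 cells), 6536 with E2 (116 cells) and 9955 with E2 + P4 (37 cells). Plasma cells held 2413, 4993 and 4584 CPM (34, 57 and 103 cells). Blood endothelial cells held 5277, 5938 and 7027 CPM (11, 16 and 20 cells) and lymphatic endothelial cells 4725, 6029 and 6405 CPM (5, 21 and 13 cells). Epithelial cells held 1298, 1667 and 2018 CPM (41, 86 and 93 cells). In each of these 5 types the pool without hormone was the lowest, with no replicate check, and single libraries made up much of some pools, with 68 of the 116 neutrophils with E2, 82 of the 103 plasma cells, 16 of the 20 blood endothelial cells and 64 of the 93 epithelial cells with E2 + P4, and 16 of the 21 lymphatic endothelial cells with E2. Over all libraries, fibroblast markers summed to 4739 CPM in the epithelial cells and to 945 to 2497 CPM in the other pooled types. In the tested immune types they summed to 454 to 794 CPM. How much of the pooled sums came from fibroblast RNA was not tested. No cluster was named for B cells.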
